A study of Mus musculus with 2 samples.

Results

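Interferon-stimulated and antiviral sensor genes were compared between Ebp1 knock out and wild type mouse embryo fibroblasts (MEFs). The set was a list of 49 genes chosen by function, with earlier results of these data known. The list spans the sensors of viral RNA, the interferon receptor and its signaling proteins, and genes that interferon induces. Of these, 47 had a probe set annotated to 1 gene symbol, out of 18193 such genes on the array, and each gene was read from its probe set with the highest mean log2 signal. The probe set of Isg15 is annotated to more than 1 gene and Ifi44 had no probe set of its own among the annotations used here, so neither was given a value. A signal of at least 100 intensity units on either array was reached by 39 of the 47 members and by 10553 of the 18193 genes, and ratios were read from these genes.

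The knock out MEFs came from day 12.5 embryos of mice with a retroviral gene trap in intron 2 of Ebp1 (Pa2g4), and the wild type MEFs came from day 12.5 embryos without the trap. RNA of both cultures was taken at passage 2 from cells grown in medium with serum, and the labels name no interferon treatment and no virus. The trap was made in 129/SvEvBrd embryonic stem cells and the mice were bred with C57BL/6 albino animals, which gives a mixed strain background. Each genotype was measured on 1 array, so genotype, embryo, culture and array cannot be told apart, no spread between replicates exists and no test was run. On the array Pa2g4 gave a signal of 1178 in knock out MEFs and 1835 in wild type MEFs (log2 ratio -0.64, as knock out over wild type throughout), and all 5 of its probe sets were lower. A bright Pa2g4 signal thus remained on the array labelled knock out. The paper reports that knock out MEFs had no Ebp1 transcript by RT-PCR and no Ebp1 protein by Western blot. Where the Pa2g4 probe sets lie relative to the trap was not checked, so the array values do not settle the label. Knock out is used throughout as the labels give it.

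Cells detect viral RNA in the cytoplasm through the helicases RIG-I and MDA5 and in endosomes through toll-like receptors, and the sensors lead to the production of type I interferon. Interferon binds a receptor of paired chains, whose kinases Jak1 and Tyk2 activate transcription factors such as Stat2. Stat2 acts with Irf9 in a complex that binds the interferon-stimulated response element (ISRE) in the promoters of many antiviral genes. Fibroblasts carry this receptor and are a standard cell in which interferon responses are studied, and a low level of many of these genes is kept without infection by small amounts of interferon.

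The ISRE is built from repeats of GAAA. Its core, GAAANNGAAA (TTTCNNTTTC on the other strand), was searched on both strands in the 250 bases before each RefSeq start site (build GRCm38.p6). A promoter window was found for 39 of the 49 listed genes, and 11 of the 39 (28.2%) held the core, against 936 of 27025 genes (3.46%) with a promoter window. The 160 bases before the start are shown for 6 members, 5′ to 3′ in the direction of transcription, with the bases of the matches in capitals. Ifit1, Ifit3, Bst2 and Gbp3 are shown because they held the core and were over 2-fold lower in knock out MEFs. Gbp2 and Oas1a are shown because they held the same core and were within 2-fold. Ifitm2, with a match at -46 and a log2 ratio of -0.18, also held the core within 2-fold and is not shown.
Ifit1 chr19:34640729-34640888 (+ strand): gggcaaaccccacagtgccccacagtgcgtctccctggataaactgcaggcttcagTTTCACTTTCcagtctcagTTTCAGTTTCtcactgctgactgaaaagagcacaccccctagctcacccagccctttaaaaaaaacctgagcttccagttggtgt
Ifit3 chr19:34583369-34583528 (+ strand): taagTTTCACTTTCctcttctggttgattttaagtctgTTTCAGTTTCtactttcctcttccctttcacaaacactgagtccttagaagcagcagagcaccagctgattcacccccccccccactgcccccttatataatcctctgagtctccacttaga
Bst2 chr8:71537473-71537632 (- strand): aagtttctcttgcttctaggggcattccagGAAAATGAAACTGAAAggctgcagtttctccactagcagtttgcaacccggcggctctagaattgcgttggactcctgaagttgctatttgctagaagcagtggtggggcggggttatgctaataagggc
Gbp3 chr3:142559884-142560043 (+ strand): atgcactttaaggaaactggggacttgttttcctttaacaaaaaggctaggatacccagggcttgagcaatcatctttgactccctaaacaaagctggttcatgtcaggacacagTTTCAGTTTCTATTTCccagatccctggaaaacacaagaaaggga
Gbp2 chr3:142620503-142620662 (+ strand): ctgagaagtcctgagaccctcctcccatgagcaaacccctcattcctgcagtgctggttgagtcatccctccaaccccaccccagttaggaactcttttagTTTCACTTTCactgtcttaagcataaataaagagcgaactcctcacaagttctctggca
Oas1a chr5:120907526-120907685 (- strand): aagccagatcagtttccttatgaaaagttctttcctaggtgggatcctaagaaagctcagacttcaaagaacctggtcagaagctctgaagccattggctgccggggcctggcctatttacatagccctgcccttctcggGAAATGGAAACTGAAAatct

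The matches of Ifit1 begin at -104 and -85 and those of Ifit3 at -156 and -122, counted from the start site, and in both genes they are separate. The matches of Bst2 (-130 and -124), Gbp3 (-45 and -39) and Oas1a (-20 and -14) overlap, so that 3 repeats stand in a row. Gbp2 has a single match at -59. In Bst2 a gamma-activated sequence core (TTCNNNGAA) begins at -136 and overlaps the first ISRE match. Such a match is a description of the sequence and does not show that a factor binds there.

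Of the 39 members with at least 100 on either array, 17 (43.6%) were over 2-fold lower in Ebp1 knock out MEFs. Over all 10553 genes this share was 1.93%. Only Uba7 was over 2-fold higher, where 1.58% of all genes were, and 21 members were within 2-fold. The log2 ratio was below 0 for 33 members (84.6%) and for 58.1% of all genes. The median log2 ratio was -0.83 over the members and -0.06 over all genes. The list was drawn up with earlier results of these data known, so these shares describe it and are no test. These are bulk cultures, in which fewer cells that express a gene and less RNA per cell cannot be told apart.

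Part of these ratios rests on low signals. On the knock out array 11 of the 39 members were under 100 while above it on the wild type array, and no member showed the opposite. Over all 10553 genes, 434 were under 100 on the knock out array only and 442 on the wild type array only. The 11 members thus passed the minimum only through the wild type array, where they were higher. With 100 required on both arrays, 8 of 28 members (28.6%) were over 2-fold lower, where 0.827% of all genes were. The median was then -0.29 for the members and -0.07 for all genes. With signals under 100 raised to 100, 15 members (38.5%) were over 2-fold lower, where 1.12% of all genes were. In the other direction 1 member was over 2-fold higher, where 0.758% of all genes were. The median was -0.50 for the members and -0.06 for all genes. Gbp3 and Parp14 were the members that left the count. Among the 14 members that reached 500 on either array, 6 were over 2-fold lower, none was over 2-fold higher, and 1.06% of the 5014 genes at that level were over 2-fold lower. The plot of member signals shows the members in the order of their roles.

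**Figure D1:**
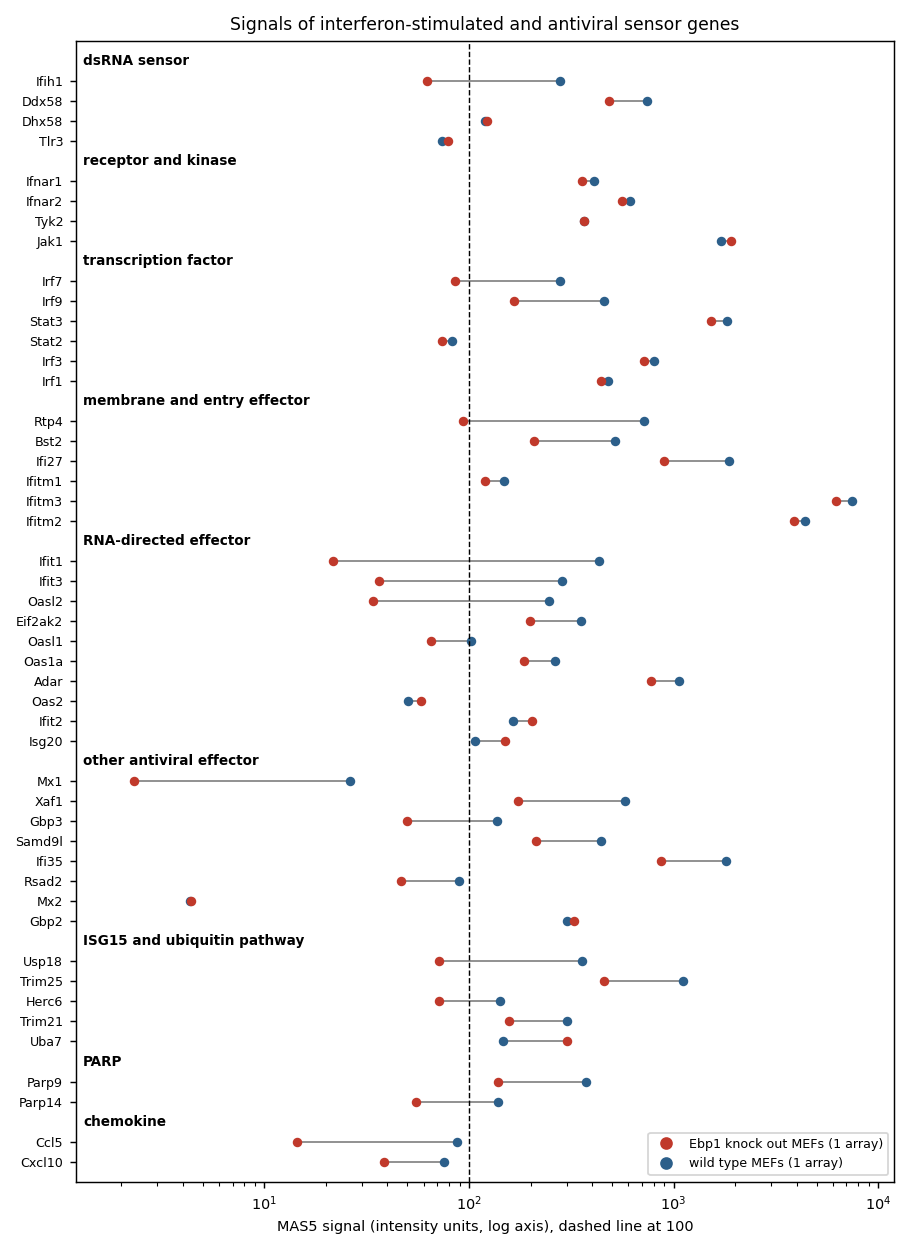
MAS5 signals of the 47 measured members on a log axis, by role, with red points for the Ebp1 knock out array, blue points for the wild type array and a dashed line at 100. Red points of 11 members lie left of the dashed line with the blue point right of it, among them Ifit1 (21.6 in knock out and 432 in wild type MEFs), while the receptor and kinase genes lie almost on top of each other.

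The sensors of double-stranded RNA differed among themselves. Ifih1, which encodes MDA5, gave a signal of 62.3 in knock out MEFs and 279 in wild type MEFs. With the knock out signal set to 100, it was at least 2.79-fold lower. Ddx58, which encodes RIG-I, had 486 in knock out MEFs and 739 in wild type MEFs (log2 ratio -0.60). Its other probe set over 100 gave -0.83, so both probe sets were lower, within 2-fold. Dhx58, which encodes their regulator LGP2, had 122 in knock out MEFs and 119 in wild type MEFs (0.03). The endosomal sensor Tlr3 stayed under 100 on both arrays (79.3 in knock out and 74.2 in wild type MEFs) and has no ratio.

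The receptor chains and their kinases had similar signals in both cultures. Their 4 log2 ratios lay between -0.20 and 0.17, with a median of -0.07. Ifnar1, a chain of the type I interferon receptor, gave a signal of 355 in knock out MEFs and 408 in wild type MEFs. The other chain, Ifnar2, had 558 in knock out MEFs and 612 in wild type MEFs, and its probe sets over 100 ranged from -0.52 to -0.13. Jak1 had 1918 in knock out MEFs and 1699.6 in wild type MEFs (0.17). Tyk2 had 363 in knock out MEFs and 364 in wild type MEFs. None of these genes was over 2-fold apart on any probe set over 100.

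Among the 5 transcription factors given a ratio, Irf7 and Irf9 were over 2-fold lower and the others were not. Irf7, which drives the genes of the alpha interferons and is itself induced by interferon, gave a signal of 85.7 in knock out MEFs and 279.5 in wild type MEFs. It was at least 2.80-fold lower with the knock out signal set to 100. Irf9, the DNA-binding subunit of the ISRE complex, had 167 in knock out MEFs and 458 in wild type MEFs, 2.74-fold lower, with both signals over 100. Irf3, which is activated by the sensors without being induced, had 717 in knock out MEFs and 803 in wild type MEFs (-0.16). Irf1, a further factor of the family, had 444 in knock out MEFs and 481 in wild type MEFs (-0.11). Stat3, which carries cytokine signals such as that of interleukin 6, had 1519 in knock out MEFs and 1834 in wild type MEFs (-0.27). The other probe sets of Stat3 over 100 gave 0.15 and 0.27, so its direction differed between probe sets. Stat2 was under 100 on both arrays on its brighter probe set (73.5 in knock out and 83.1 in wild type MEFs). A second probe set of Stat2 reached 145 in wild type MEFs and was at 38.2 in knock out MEFs. This is a log2 ratio of -1.93, over 2-fold lower, with the knock out signal under 100.

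Of the 6 effectors that act at membranes, Rtp4, Bst2 and Ifi27 were over 2-fold lower. Rtp4, which encodes a chaperone of cell surface receptors, gave a signal of 94.0 in knock out MEFs and 713 in wild type MEFs. It was at least 7.13-fold lower, rank 2 from the lowest of the 10553 genes once signals were raised to 100. Bst2, which encodes tetherin and holds budding virus particles at the cell surface, had 208 in knock out MEFs and 520.0 in wild type MEFs (2.50-fold lower). Ifi27, which encodes a small hydrophobic protein, had 894 in knock out MEFs and 1856 in wild type MEFs (log2 ratio -1.05). Its other probe set gave -1.09. The Ifitm genes, whose products block virus entry, were much closer together. Ifitm3 had 6216 in knock out MEFs and 7411 in wild type MEFs (-0.25). Ifitm2 had 3881 in knock out MEFs and 4400.0 in wild type MEFs (-0.18). Ifitm1 had 119.9 in knock out MEFs and 149 in wild type MEFs (-0.31), so all 3 lay below 0 and within 2-fold.

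The effectors that act on RNA differed among themselves, with 3 of 9 over 2-fold lower and the others within 2-fold. Ifit1, which binds viral RNA by its cap end, gave a signal of 21.6 in knock out MEFs and 432 in wild type MEFs. It was at least 4.32-fold lower with the knock out signal set to 100. Ifit3, which forms complexes with Ifit1 in human cells, had 36.5 in knock out MEFs and 284 in wild type MEFs (at least 2.84-fold lower). Ifit2, of the same family, had 204 in knock out MEFs and 165 in wild type MEFs (0.31). In the reference no coding gene lies between Ifit2 and Ifit3 and 3 lie between Ifit3 and Ifit1, so neighbours of 1 cluster had different ratios.

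The Oas family makes or relates to the oligoadenylate synthetases that switch on RNase L. Oasl2 gave a signal of 33.9 in knock out MEFs and 248 in wild type MEFs, at least 2.48-fold lower. Its neighbour Oasl1, with no coding gene between them, had 65.0 in knock out MEFs and 102 in wild type MEFs, a log2 ratio of -0.65 that shrank to -0.03 with signals raised to 100. Oas1a had 186 in knock out MEFs and 263 in wild type MEFs (-0.50), and Oas2 was under 100 on both arrays (58.2 in knock out and 50.4 in wild type MEFs). Oasl2 was thus the member of this family over 2-fold lower.

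The remaining genes of RNA control were within 2-fold. Eif2ak2, which encodes the kinase PKR that stops translation, gave a signal of 198 in knock out MEFs and 351 in wild type MEFs (-0.83). Its other probe sets gave 0.48 and 0.56, so the direction of Eif2ak2 was not the same across probe sets. Adar, which deaminates adenosine in double-stranded RNA, had 779 in knock out MEFs and 1067 in wild type MEFs (-0.45), with a range over probe sets of -1.36 to 0.00. The exonuclease gene Isg20 had 149 in knock out MEFs and 107 in wild type MEFs (0.48).

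Among the other antiviral effectors 4 of 5 were over 2-fold lower, where 1.93% of all genes were. With signals raised to 100 it was 3 of 5, where 1.12% of all genes were. Xaf1, named for its binding to the apoptosis inhibitor XIAP, gave a signal of 174 in knock out MEFs and 581 in wild type MEFs (3.34-fold lower). Its second probe set gave a log2 ratio of -1.79 beside -1.74. Samd9l, a cytoplasmic antiviral gene, had 212 in knock out MEFs and 441 in wild type MEFs (2.08-fold lower). Ifi35 had 870.0 in knock out MEFs and 1806 in wild type MEFs (2.08-fold lower), and its other probe sets gave -0.76 and -0.47. All 3 probe sets of Ifi35 were lower, with the brightest over 2-fold.

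The guanylate-binding proteins are GTPases that attack the vacuoles of intracellular pathogens. Gbp3 gave a signal of 49.9 in knock out MEFs and 137 in wild type MEFs, which gives a bound of only 1.37-fold lower. Gbp2 had 327 in knock out MEFs and 302 in wild type MEFs (0.11), and its other probe set gave 0.40. A single coding gene lies between Gbp3 and Gbp2 in the reference. The antiviral genes Mx1, Mx2 and Rsad2 were under 100 on both arrays, and no ratio is given for them. Rsad2, which encodes viperin, had 46.8 in knock out MEFs and 89.7 in wild type MEFs, just under the minimum, while Oasl1 with 102 in wild type MEFs was the member just over it.

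Genes of the ISG15 and ubiquitin pathway held both the strongly lower Usp18 and the only higher member. Usp18, which removes ISG15 from proteins and dampens signaling from the interferon receptor, gave a signal of 71.4 in knock out MEFs and 356 in wild type MEFs. It was at least 3.56-fold lower. Trim25, a ubiquitin ligase that acts with RIG-I, had 456 in knock out MEFs and 1108 in wild type MEFs (2.43-fold lower). The other probe sets of Trim25 over 100 gave -0.85 and -0.45. Trim21, a cytoplasmic antibody receptor and ubiquitin ligase, had 157 in knock out MEFs and 301 in wild type MEFs (-0.94), but its other probe set gave -0.04. Herc6, a ligase for ISG15 in the mouse, had 71.6 in knock out MEFs and 142 in wild type MEFs. Its log2 ratio of -0.99 was just within 2-fold, where Ifi35 at -1.05 was just over it, and with signals raised to 100 it was -0.51.

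Uba7, the enzyme that activates ISG15, gave a signal of 301 in knock out MEFs and 147 in wild type MEFs, 2.04-fold higher. A second probe set of Uba7 went the other way, with 95.7 in knock out MEFs and 212 in wild type MEFs (-1.15). The remaining probe set was under 100 on both arrays, with 6.19 in knock out MEFs and 77.0 in wild type MEFs. The direction of Uba7 therefore depended on the probe set, and it was the only member with probe sets over 2-fold apart in opposite directions.

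Both PARP genes, which attach or read ADP-ribose, were over 2-fold lower by their signals. Parp9 had 139 in knock out MEFs and 374 in wild type MEFs (2.70-fold lower). Parp14 had 55.0 in knock out MEFs and 138 in wild type MEFs, for which the bound is 1.38-fold. Between them in the reference lies Dtx3l, the partner of Parp9 and no member of the list, which had 123 in knock out MEFs and 337 in wild type MEFs (log2 ratio -1.45). The chemokine genes of the list did not reach 100. Cxcl10 had 38.6 in knock out MEFs and 75.4 in wild type MEFs. Ccl5 had 14.5 in knock out MEFs and 87.2 in wild type MEFs.

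**Figure D2:**
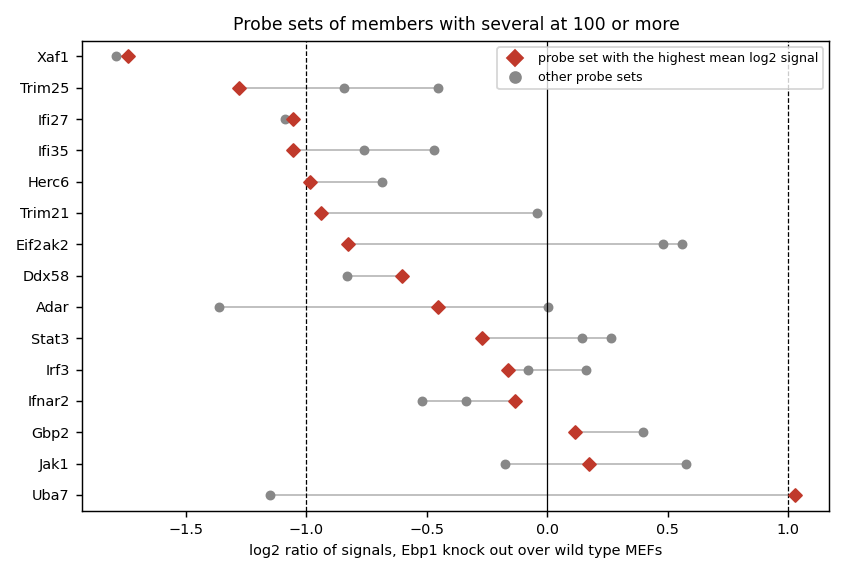
Log2 ratio (knock out over wild type) for every probe set with at least 100 on either array, for members with several such probe sets, with red diamonds for the probe set used, grey points for the others and dashed lines at 2-fold. Xaf1 and Ifi27 were over 2-fold lower on both probe sets, while the points of Uba7 (1.03 and -1.15), Eif2ak2, Stat3, Irf3 and Jak1 lie on both sides of 0.

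Since ratios spread more at low signals, the members were also read against genes of like signal, in classes that were chosen after the data were seen. At a geometric mean of the signals over 500, 3 of 11 members (27.3%) and 24 of 4593 other genes (0.523%) were over 2-fold lower. Between 200 and 500 the counts were 6 of 14 members (42.9%) and 35 of 3349 other genes (1.05%). Between 100 and 200 they were 4 of 9 members (44.4%) and 58 of 2091 other genes (2.77%). In the class under 100, 14.6% of the 481 other genes were over 2-fold lower, beside 4 of 5 members. A gene in this class passed the minimum only with signals on both sides of 100, so the filter itself favours wide ratios there. Of the 481 other genes, 74 were over 2-fold higher. The SD of the log2 ratio of the other genes was 1.11 in that lowest class and 0.31 in the brightest. The members thus had the higher share in each class, though the class under 100 was shaped by the minimum. The background was lowest where signals were bright.

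**Figure D3:**
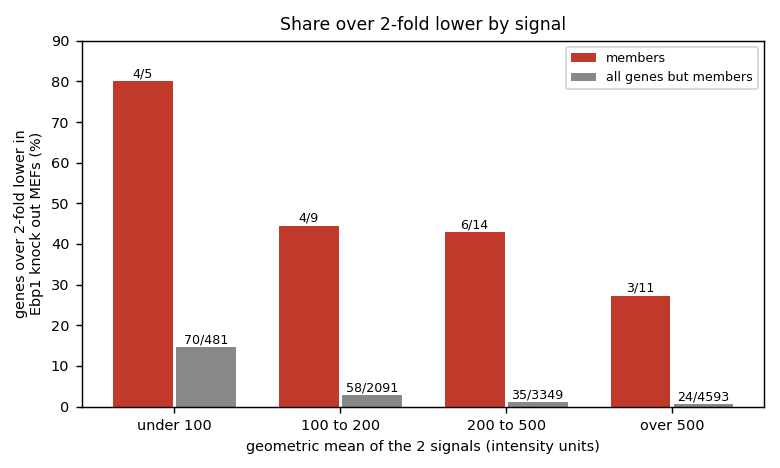
Percent of genes over 2-fold lower in knock out MEFs among members (red) and all other genes (grey), in 4 classes of the geometric mean of both signals, with the counts above the bars. The share of members runs from 27.3% over 500 to 80% under 100, and that of other genes from 0.523% to 14.6%. Genes in the class under 100 reached 100 on 1 array only, which favours wide ratios.

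Ranked by log2 ratio with signals raised to 100, members stood among the lowest genes of the array. The lowest 20 genes held Rtp4, Ifit1, Usp18 and Xaf1. The lowest 50 held 12 members (24% of the 50 and 30.8% of the 39), and 5 other genes of the pathway lists stood with them (Iigp1, Phf11d, Igtp, Dtx3l and Lgals3bp). Of the 118 genes over 2-fold lower on this scale, 15 (12.7%) were members and 8 were on the other pathway lists. These cut-offs of rank were chosen after the data were seen, and the lists with earlier results of these data known.

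Genes of the same pathways that are not members were counted from lists by function, also chosen with earlier results of these data known. Of 35 other interferon-stimulated genes with at least 100 on either array, 10 (28.6%) were over 2-fold lower, where 1.93% of all genes were. None was over 2-fold higher, and the median log2 ratio was -0.37. The knock out signal alone was under 100 for 8 of the 35. With signals raised to 100, 7 (20%) were over 2-fold lower, where 1.12% of all genes were. The GTPase genes of defence against intracellular pathogens were among them. Iigp1 gave a signal of 77.7 in knock out MEFs and 349 in wild type MEFs (at least 3.49-fold lower). Igtp had 79.6 in knock out MEFs and 301 in wild type MEFs (at least 3.01-fold lower). Irgm2, the neighbour of Igtp, had 39.8 in knock out MEFs and 148 in wild type MEFs, and Gbp7, the neighbour of Gbp3, had 80.7 in knock out MEFs and 199 in wild type MEFs. Lgals3bp, which encodes a secreted glycoprotein, had 464 in knock out MEFs and 1123 in wild type MEFs (2.42-fold lower). Rnf213, a large ubiquitin ligase, had 627 in knock out MEFs and 1487 in wild type MEFs (2.37-fold lower). Phf11d, Trim34a, Trim30a and Dtx3l made up the count of 10. The knock out signals of Phf11d, Trim34a and Trim30a were under 100, and with these set to 100 the genes were at least 3.19-fold, 2.10-fold and 1.65-fold lower.

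The other lists around the pathway had few genes apart. Over all genes 1.93% were over 2-fold lower and 1.58% were over 2-fold higher. Of 10 other interferon signaling genes, Socs3, a feedback inhibitor of cytokine signaling, was over 2-fold lower (268 in knock out MEFs and 642 in wild type MEFs), and the median was -0.02. None of 11 other sensing and adaptor genes was over 2-fold apart (median -0.07). None of 11 antigen presentation genes was (-0.19), and 9 of them lay below 0, where 58.1% of all genes did. The 8 measured interferon genes were all under 100, with highest signals of 45.1 in knock out MEFs and 45.8 in wild type MEFs, so they were not detectable above the level treated as low here. Of 11 targets of NF-kappaB, none was over 2-fold lower and 3 were over 2-fold higher. These were the chemokine gene Cxcl5 (1063 in knock out MEFs and 286 in wild type MEFs), the prostaglandin synthase gene Ptgs2 (3418 in knock out MEFs and 1172 in wild type MEFs) and the inhibitor gene Tnfaip3 (285 in knock out MEFs and 137 in wild type MEFs).

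**Figure D4:**
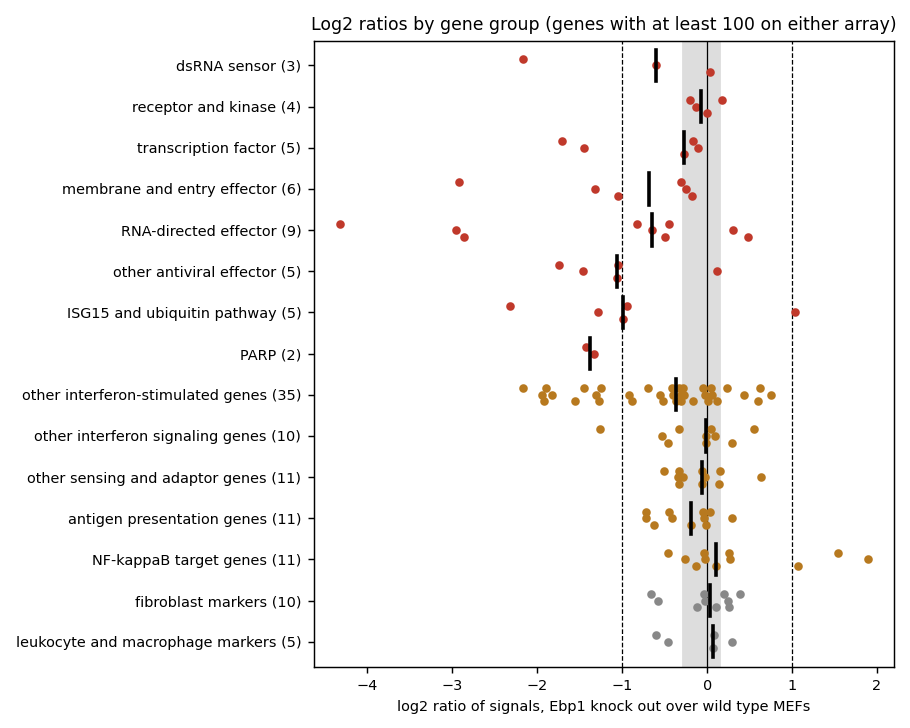
Log2 ratio (knock out over wild type) for genes with at least 100 on either array, by role for members (red), by list for other genes of the pathways (brown) and for cell type markers (grey), with the number of genes in parentheses, a black bar at each median, dashed lines at 2-fold and a grey band from the lower to the upper quartile of all genes (-0.28 to 0.15). The medians of the receptor and kinase genes (-0.07), the other signaling genes (-0.02) and the sensing and adaptor genes (-0.07) lie in the band, and those of the PARP genes (-1.38) and of other antiviral effectors (-1.06) lie left of the 2-fold line. With signals raised to 100, which this plot does not use, the PARP median is -0.95 and that of the other antiviral effectors -1.05.

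Cell type markers and array quality were read beside these results. All 10 fibroblast markers were over 100 and within 2-fold, with a summed signal of 60769 in knock out MEFs and 57358 in wild type MEFs. Of 12 measured leukocyte and macrophage markers 5 reached 100 and none of these was over 2-fold apart. Their sum was 1266 in knock out MEFs and 1467 in wild type MEFs, and the defining marker Ptprc was near background (16.4 in knock out and 26.2 in wild type MEFs). Of 6 plasmacytoid and dendritic cell markers only Tcf4 reached 100, and none of 4 erythroid markers did. Of the epithelial markers 3 of 6 reached 100 and all 3 were over 2-fold higher on the knock out array (1 with signals raised to 100). Among them was Epcam (1350.5 in knock out MEFs and 174 in wild type MEFs). The others were under 100 on both arrays. These were Krt18 (99.7 in knock out and 89.4 in wild type MEFs), Krt8 (91.9 and 73.5) and Cdh1 (19.5 and 11.5). Of the endothelial markers 2 of 5 reached 100, and they went opposite ways. Flt1 was 3.28-fold lower (100.3 in knock out MEFs and 329 in wild type MEFs). Kdr was higher, within 2-fold (156 in knock out MEFs and 100.7 in wild type MEFs, log2 ratio 0.63). Whether any of these cell types has a part in the member ratios was not tested. The spike-in probe sets, 9 in number, were all higher on the knock out array, by a median of 1.31-fold, and the median signal of all probe sets was 71.6 in knock out MEFs and 66.5 in wild type MEFs.

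The ISRE core was set beside the ratios as a description. With at least 100 on either array, 4 of 7 members that held the core before the start (57.1%) and 8 of 26 members that did not (30.8%) were over 2-fold lower. The median log2 ratios were -1.32 and -0.53. Rtp4, Ifi27, Usp18, Parp9 and Parp14, all over 2-fold lower, have no promoter window and are in neither group. The same holds for Dhx58, which was within 2-fold. Among other genes, 6 of 249 genes with it (2.41%) and 149 of 8305 without it (1.79%) were over 2-fold lower, and 2.41% of the 249 were over 2-fold higher. Those 6 genes were Igtp, Irgm2, Trim30a, Trim30d, Gbp7 and Mfap2, named after their values were seen. With signals raised to 100, 2 of the 249 (0.803%), Igtp and Mfap2, and 78 of the 8305 (0.939%) were over 2-fold lower, so the order of these shares turned. For members the counts on that scale were 3 of 7 with the core and 8 of 26 without it.

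Members without the core before the start also were lower. Ifih1 holds it 33 bases past the start, and Irf7, Irf9, Xaf1 and Trim25 hold it in neither stretch of the window, which says only that these letters are absent there. Counting the whole 300-base window, a choice made after the data were seen, 16 of 39 listed genes (41.0%) and 3.99% of all genes held the core. In that window 5 of 12 members with the core and 7 of 21 without it were over 2-fold lower, so the difference between them was smaller. The counts of other genes were 7 of 289 with the core (2.42%) and 148 of 8265 without it (1.79%). With low signals raised to the minimum, 4 of 12 and 7 of 21 members (33.3% each) were over 2-fold lower, so no difference was left. The shares of other genes were then 1.04% and 0.932%. The core of the gamma-activated sequence was found before the start in 7 of 39 listed genes (17.9%) and in 8.13% of all genes. Of the 7 members with it, 1 (Bst2) was over 2-fold lower, and of the 26 without it, 11 were. Among other genes, 14 of 577 with it (2.43%) and 141 of 7977 without it (1.77%) were over 2-fold lower, the opposite order. With low signals raised to the minimum, the shares of other genes were 1.56% and 0.89%. The member counts were then 1 of 7 and 10 of 26.

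**Figure D5:**
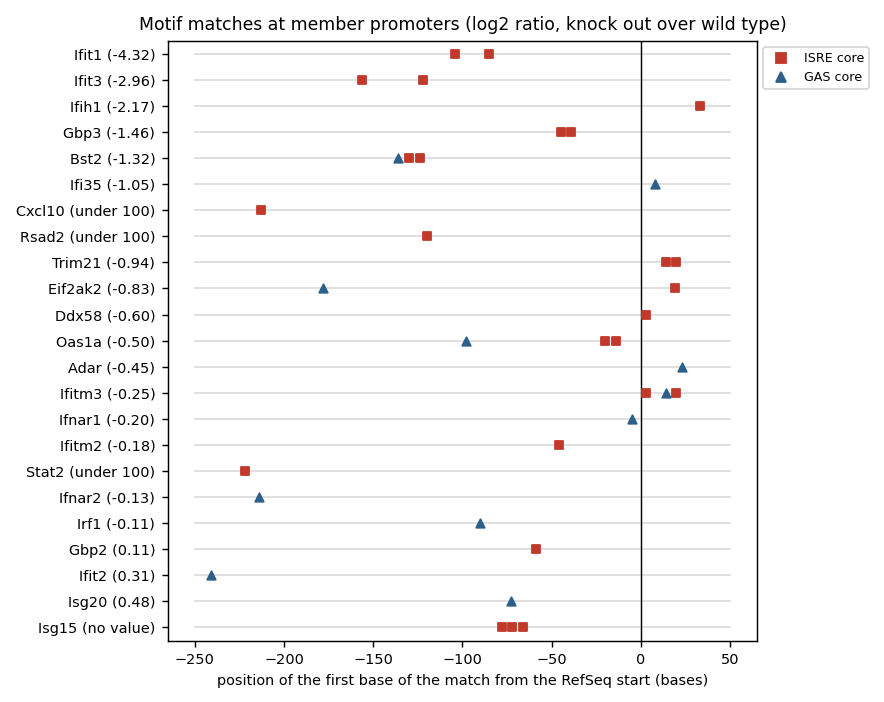
Position of ISRE core (red squares) and gamma-activated sequence (GAS) core matches (blue triangles) in the promoter windows of the listed genes with a match, in bases from the RefSeq start, with each gene's log2 ratio in parentheses. Genes with an ISRE core before the start include Ifit1 and Ifit3 at the top and Gbp2 (0.11) near the bottom. Stat2, Rsad2 and Cxcl10 are marked as under 100 on both arrays by the probe set used, while a second Stat2 probe set reached 145 in wild type MEFs.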

How the data were processed

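The deposited table held 1 linear intensity value per probe set and array, which the authors made with Affymetrix MAS5 and scaled to a common target. It was used unchanged. Detection calls and p-values of change, which the methods describe, were not used here. Probe sets were named through the platform annotation. Of 45037 non-control probe sets, 34945 had 1 symbol, 932 several and 9160 none here, and 45 of the 47 member symbols were found in the RefSeq gene table. Ratios are log2 of knock out over wild type, with no test. A fold against a signal under 100 was computed with that signal set to 100. The members and gene lists were chosen with earlier results of these data known. All members are named or counted, and of each pathway list the genes over 2-fold apart. Steps were tested on simulated data. The alternatives covered scaling, low signals, minimum signals, the choice of probe set and the fold threshold. Software was pandas 2.3.3, numpy 2.4.6, matplotlib 3.10.9 and statsmodels 0.14.6 under Python 3.11.15. Promoters were RefSeq sequences of GRCm38.p6.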

Additional observations from a re-analysis of the deposited data

How the results depend on the processing

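With 1 array per genotype none of these counts has an error, and signals under 100 carry no order. The count of 17 members over 2-fold lower lay between 14 and 21 under the 4 other scalings and with other probe sets. It lay in the same range with signals raised to 100, with 50 added and with no minimum. In these settings the share of all genes over 2-fold lower ran from 1.01% with 50 added to 6.76% with spike-in scaling. At 1.5-fold 22 members and 7.30% of all genes were lower. The count was 3 with signals raised to 500 (0.227% of all genes) and 6 of 14 members with a minimum of 500 (1.06%). It was 8 of 28 with 100 required on both arrays (0.827%) and 8 at 3-fold (0.625%). With 100 on both arrays the median of the members was -0.29. These settings by construction shrink ratios, leave fewer genes or ask for a larger fold. All 17 were over 2-fold lower under every scaling. The count of 1 higher member was 0 after median centring, after spike-in scaling, with signals raised to 500, with 50 added, with a minimum of 500, with the mean over probe sets, with the probe set highest in wild type MEFs and at 3-fold. With signals raised to 500, 13 of 39 members and 27.5% of all genes were below 0, and the median of the members was 0. With a minimum of 500, 13 of 14 members and 57.8% of all genes were below 0. The log2 ratio of Uba7 was -0.060 with the mean over its probe sets and -1.15 with the probe set highest in wild type MEFs.

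Median centring moved the median of all genes to -0.18 and spike-in scaling moved it to -0.46, where the members were at -0.93 and -1.21 and 6.76% of all genes were over 2-fold lower. Of 471 values of single members under alternatives, 438 lay within 1.5-fold of the reported value, 31 moved further and 2 reversed, both of Uba7. In 14 of the 471 the sign changed, and with spike-in scaling Jak1, Ifit2, Gbp2 and Dhx58 were below 0. No paired analysis was possible because each genotype was measured on a single array.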
